A study of Mus musculus with 16 samples.

Results

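The constitutive proteasome genes were taken as the protein-coding genes whose mm10 symbol begins with Psm, a letter from a to g and a digit, without the inducible immunoproteasome genes Psmb8, Psmb9 and Psmb10. This gave 47 of the 52636 genes counted. Of these, 45 encode subunits, assembly factors or regulators of the proteasome. The remaining 2 were taken in by symbol only: Psmc3ip, a cofactor of meiotic recombination, and Psme2b, a near copy of Psme2. The libraries came from dorsal root ganglia (DRG) of male C57BL/6J mice aged 3 to 4 months, with L3-6 ganglia of 1 mouse in each library and 4 mice in each group. Mice had spared nerve injury (SNI), in which the common peroneal and sural branches of the sciatic nerve were tied and cut and the tibial branch was left whole, or a sham operation. From 4 weeks after surgery (the methods text gives 4 months instead) they received the tricyclic antidepressant desipramine (DMI, 15 mg/kg, given intraperitoneally 2 times per day) or saline for 3 weeks. The groups are named Sham-Saline, Sham-DMI, SNI-Saline and SNI-DMI, and no mouse carried a transgene or altered allele as far as the labels state.

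The proteasome is the barrel-shaped protease that degrades proteins tagged with ubiquitin. Its 20S core is built of outer rings of alpha subunits and inner rings of beta subunits, of which Psmb5, Psmb6 and Psmb7 carry the chymotrypsin-like, caspase-like and trypsin-like active sites. A 19S cap binds the ubiquitin chain, removes it and unfolds the substrate with a ring of ATPases, while alternative activators (Psme1 to Psme4) open the core without ubiquitin. The subunits are made in fixed proportions, and in mammals the transcription factor Nfe2l1 is known to raise their genes together when proteolysis falls short. In sensory neurons the ubiquitin-proteasome system is known for its part in axon degeneration and synaptic turnover.

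Promoters are shown for the members on which the results below turn: the catalytic Psmb5 and Psmb6, the 19S ATPase Psmc4, the ubiquitin receptor Psmd4, the assembly chaperone Psmg3 and the activator Psme4. Each is the RefSeq sequence (GRCm38.p6) of up to 250 bases before the RefSeq start of the gene, ending before the GENCODE start where that lies further upstream, written 5′ to 3′ on the gene's strand. Capitals mark TGACNNNGC, the core of the antioxidant response element bound by Nfe2l1 and Nfe2l2, or CCAAT, the NF-Y box, each searched on both strands; the patterns share no placement in these windows.
Psmb5, chr14:54618023-54618245, minus strand: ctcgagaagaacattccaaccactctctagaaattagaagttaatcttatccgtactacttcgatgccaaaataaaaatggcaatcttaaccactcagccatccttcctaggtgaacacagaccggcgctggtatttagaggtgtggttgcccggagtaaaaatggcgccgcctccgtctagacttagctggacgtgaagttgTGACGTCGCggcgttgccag
Psmb6, chr11:70525107-70525356, plus strand: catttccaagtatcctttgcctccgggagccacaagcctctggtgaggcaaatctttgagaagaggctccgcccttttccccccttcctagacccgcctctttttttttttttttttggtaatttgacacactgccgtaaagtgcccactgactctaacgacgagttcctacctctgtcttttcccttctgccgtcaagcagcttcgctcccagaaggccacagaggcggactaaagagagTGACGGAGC
Psmc4, chr7:28050102-28050342, minus strand: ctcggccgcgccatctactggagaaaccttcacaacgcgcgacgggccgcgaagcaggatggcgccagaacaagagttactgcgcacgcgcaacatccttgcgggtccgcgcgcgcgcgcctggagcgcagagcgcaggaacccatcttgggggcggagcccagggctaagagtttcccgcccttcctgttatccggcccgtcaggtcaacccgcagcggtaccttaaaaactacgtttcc
Psmd4, chr3:95042615-95042864, minus strand: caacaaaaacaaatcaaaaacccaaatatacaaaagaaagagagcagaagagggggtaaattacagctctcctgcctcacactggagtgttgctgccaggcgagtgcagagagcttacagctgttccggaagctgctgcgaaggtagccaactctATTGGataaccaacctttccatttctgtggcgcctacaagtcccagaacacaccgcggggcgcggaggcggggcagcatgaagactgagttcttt
Psmg3, chr5:139826895-139827144, minus strand: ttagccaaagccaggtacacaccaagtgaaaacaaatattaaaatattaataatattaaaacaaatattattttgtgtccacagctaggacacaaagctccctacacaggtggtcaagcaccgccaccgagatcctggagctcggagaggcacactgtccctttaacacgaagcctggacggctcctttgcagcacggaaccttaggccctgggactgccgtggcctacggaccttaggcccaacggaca
Psme4, chr11:30771525-30771725, plus strand: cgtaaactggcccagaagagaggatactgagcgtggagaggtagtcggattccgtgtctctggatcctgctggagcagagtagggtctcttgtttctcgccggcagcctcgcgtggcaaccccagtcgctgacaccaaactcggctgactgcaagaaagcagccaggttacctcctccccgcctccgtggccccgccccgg
The TGACNNNGC match began 47 bases before the RefSeq start in Psmb5 and 9 bases before it in Psmb6, and Psmd4 held 1 CCAAT on the reverse strand 95 bases before its start. The windows of Psmc4, Psmg3 and Psme4 held neither pattern. In the RefSeq windows from 250 bases before to 50 after the start, which were at hand for 39 of the 47 members, TGACNNNGC was found in 6 (15.4%: Psmb5, Psmb6, Psmc6, Psmd9, Psmd12 and Psme4), against 14.0% of 27025 promoters. CCAAT was found in 14 of 39 (35.9%), against 41.1% of all promoters. The members held these letters about as often as promoters at large.

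Reads assigned to genes ranged from 41194238 to 73920332 per library, and Sham-DMI had the widest range. Library numbers ran from 17 to 24 for DMI and from 33 to 40 for saline, with SNI-Saline before Sham-Saline, and what these numbers in the sample titles stand for is not given in the sources used here. Anything that follows them cannot be told apart from the group. The labels name spinal cord as tissue and DRG as cell type. The 7 DRG neuron markers were present in every library at a summed 6472 to 8168 CPM (counts scaled to a common library size), and the 7 matched spinal cord markers summed to 19.2 to 34.9 CPM. Of the 47 members, 46 passed the filter on low counts, among 21371 genes tested. Psmb11, the thymus-specific beta subunit, did not pass: it had 51 reads over all libraries, 0 to 8 in each, and none in 1 library. The testis-specific Psma8 was tested on 2 to 28 reads per library (0.0306 to 0.488 CPM), and Psmc3ip stood at 1.23 to 2.12 CPM. All further members had at least 253 reads in every library.

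Per kilobase of exon, levels in Sham-Saline spanned a wide range. The length was that of all annotated exons of a gene together, so the ranking depends on the annotation. Psma2, for example, had 134.8 CPM on 3673 bases and so ranked below Psma6, with 110.9 CPM on 1234 bases. The ATPases Psmc5 (158 CPM per kb), Psmc1 (112 CPM per kb) and Psmc3 (101 CPM per kb) were highest, followed by the large base subunit Psmd2 (91.6 CPM per kb) and the alpha subunit Psma6 (89.9 CPM per kb). The chaperones Psmd9 (4.06 CPM per kb) and Psmg3 (4.02 CPM per kb) were the lowest of the widely expressed members. The members were measured with little scatter: the biological coefficient of variation had a median of 5.82% over the 46 tested, against 11.5% over all genes tested, so small differences could be seen. It was highest for Psma8 (46.3%), which had few reads. The figure for all genes is not matched to the members for level. Neither are the shares of all genes called that are given below.

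Sham-Saline had the lowest summed level. The CPM of all 47 members added up to 5213, 5161, 4896 and 5085 CPM in the Sham-Saline mice, 5993, 5383, 5789 and 5883 in the Sham-DMI mice, 5761, 5608, 5369 and 5553 in the SNI-Saline mice and 5703, 5705, 5760.0 and 5841 in the SNI-DMI mice. Every library of the other groups lay above the highest Sham-Saline library, and the ranges of these other groups overlapped. The mean was 5088 ± 139 CPM for Sham-Saline, 5762 ± 266 for Sham-DMI, 5573 ± 162 for SNI-Saline and 5752 ± 64.6 for SNI-DMI (SD, n = 4). Within Sham-DMI, replicate 2 was the low library. The level of the 19S genes over that of the 20S genes, both per kilobase, was 1.30 ± 0.0508 for Sham-Saline, 1.27 ± 0.031 for Sham-DMI, 1.27 ± 0.0268 for SNI-Saline and 1.26 ± 0.0201 for SNI-DMI (SD, n = 4). These are bulk libraries, so more cells of one type and more RNA per cell cannot be told apart.

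**Figure D1:**
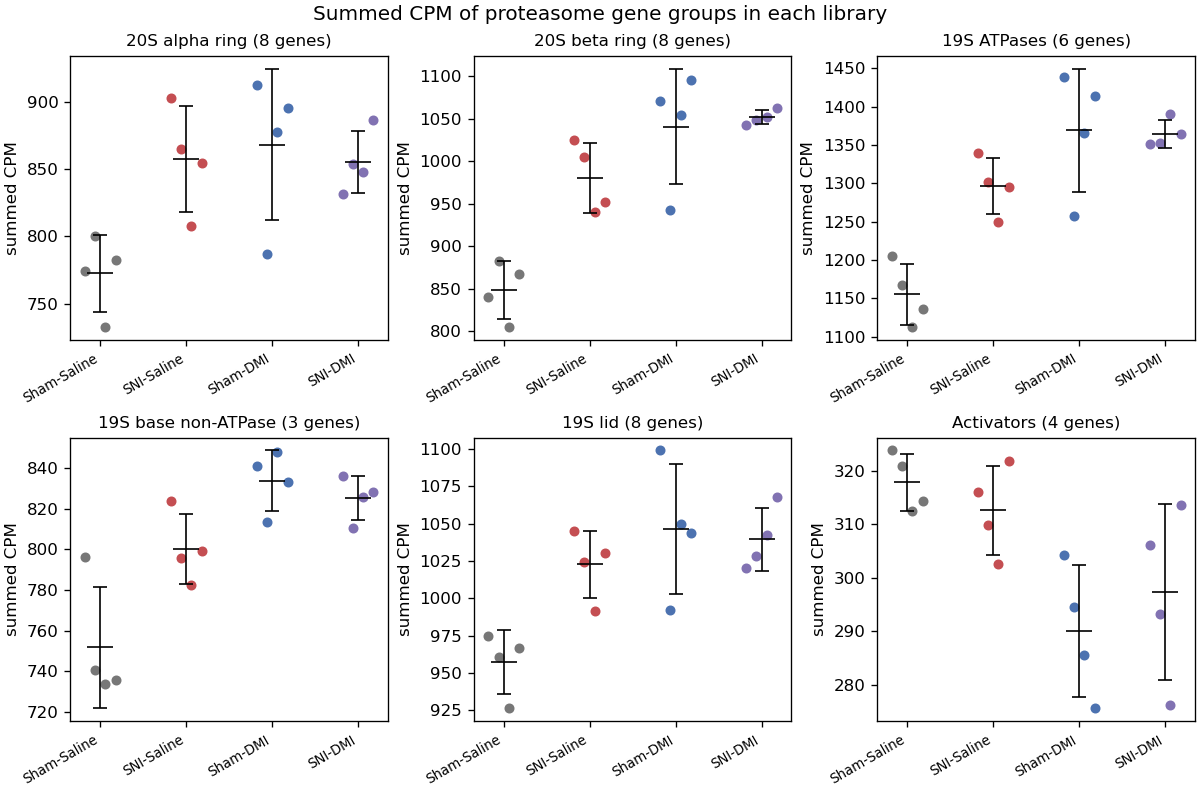
Summed CPM (vertical axis) of the members of 6 roles in each library of the 4 groups; points are libraries, and bars give the mean ± SD of 4 mice. Vertical axes do not start at 0. The core and 19S groups were lowest in Sham-Saline, while the activators, most of whose CPM is Psme4 and Psme3, had the lowest mean in Sham-DMI (290.0 ± 12.3 CPM, against 318 ± 5.36 in Sham-Saline).

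The first comparison asked what DMI did in the absence of nerve injury. In Sham-DMI against Sham-Saline, 27 of 46 members (58.7%) rose and 1 (2.17%) fell at an adjusted p under 0.1 (edgeR's quasi-likelihood test, Benjamini-Hochberg over all genes), where 11.6% of all genes rose and 11.9% fell. The median log2 fold change of the members was 0.20, against -0.021 for all genes, and 42 of 46 values were above 0. All 7 tested beta subunits rose (median log2 fold change 0.32), as did 5 of 6 ATPases (0.27), 2 of 3 base subunits without ATPase activity (0.21), 4 of 7 assembly chaperones (0.21), 4 of 8 alpha subunits (0.16) and 4 of 8 lid subunits (0.12). Among the 4 activators 1 rose and 1 fell. The changes were small, and the study's own cut-offs (unadjusted p under 0.05 with a log2 fold change of 0.32 or more in either direction) kept 4 members, against 11.5% of all genes.

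Psmb5, the chymotrypsin-like subunit (ENSMUSG00000022193, chr14:54614119-54618022), gave the smallest p of the members. Its levels were 64.8, 73.5, 65.9 and 71.9 CPM in the Sham-Saline mice, 96.95, 80.5, 91.4 and 95.5 in the Sham-DMI mice, 83.5, 85.5, 77.3 and 82.2 in the SNI-Saline mice and 94.4, 96.1, 95.6 and 93.3 in the SNI-DMI mice. All 4 Sham-DMI libraries lay above all Sham-Saline libraries, with replicate 2 the lowest of its group. The log2 fold change was 0.40 (SE 0.0581, edgeR adjusted p = 0.00176). Its exons hold the microRNA gene Mir686 on the same strand, and 1 pseudogene carries its name.

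Psmb6, the caspase-like subunit (ENSMUSG00000018286, chr11:70525367-70527858), had levels of 148, 157, 143 and 155 CPM in the Sham-Saline mice, 196, 168, 187 and 199.97 in the Sham-DMI mice, 187, 181, 171 and 171 in the SNI-Saline mice and 194, 193, 189.7 and 192 in the SNI-DMI mice. Sham-DMI again stood wholly above Sham-Saline, and the log2 fold change was 0.32 (SE 0.0531, edgeR adjusted p = 0.00212). Pseudogenes carrying its name number 2. Psmb7, the trypsin-like subunit, differed less, at 99.8, 104, 98.1 and 98.7 CPM in the Sham-Saline mice, 104, 105, 118 and 118 in the Sham-DMI mice, 111, 107, 108 and 103 in the SNI-Saline mice and 105, 99.8, 104 and 108 in the SNI-DMI mice. Its Sham-DMI range began at 104.4 CPM, next to the highest Sham-Saline library at 104.2 CPM, and the log2 fold change was 0.15 (SE 0.0484, edgeR adjusted p = 0.0384). Exons of Psmb7 overlap those of Nek6 on the opposite strand, and whether the counting used strand is not given in the sources used here. Exons of Psma4, Psma5, Psmc3, Psmc3ip, Psmd1, Psmd3, Psmd9, Psmd13, Psme1 and Psme2b overlap those of other genes too.

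The structural beta subunits moved with the active ones. Psmb2 had 101, 99.7, 88.7 and 100.3 CPM in the Sham-Saline mice, 120.1, 111, 127 and 129 in the Sham-DMI mice, 124, 120.3, 109 and 115 in the SNI-Saline mice and 127, 124, 118 and 125 in the SNI-DMI mice. Psmb3 had 76.8, 79.7, 72.9 and 77.3 CPM in the Sham-Saline mice, 107, 84.5, 96.6 and 105 in the Sham-DMI mice, 91.3, 94.3, 85.2 and 85.01 in the SNI-Saline mice and 98.1, 103, 102 and 99.1 in the SNI-DMI mice. Psmb4, the most abundant of these 3 in CPM, had 159.8, 174, 155 and 168 CPM in the Sham-Saline mice, 206, 186, 204 and 211 in the Sham-DMI mice, 202, 199.9, 182 and 184 in the SNI-Saline mice and 207, 210.5, 214 and 213 in the SNI-DMI mice. For each gene Sham-DMI lay wholly above Sham-Saline, with log2 fold changes of 0.32 (SE 0.0568, edgeR adjusted p = 0.0025) for Psmb2, 0.36 (SE 0.0623, adjusted p = 0.00225) for Psmb3 and 0.30 (SE 0.0516, adjusted p = 0.00225) for Psmb4.

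In the 19S particle, Psmc4, an ATPase of the unfolding ring (ENSMUSG00000030603, chr7:28041707-28050101), had 148, 139, 128 and 132 CPM in the Sham-Saline mice, 175, 157, 169.6 and 177 in the Sham-DMI mice, 168, 163, 152 and 161 in the SNI-Saline mice and 171, 171, 178 and 182 in the SNI-DMI mice. Psmc5, a further ATPase, had 234, 220.4, 213 and 216 CPM in the Sham-Saline mice, 299, 248, 270.4 and 274 in the Sham-DMI mice, 258, 259.8, 237 and 249.8 in the SNI-Saline mice and 282, 279.8, 282 and 266 in the SNI-DMI mice. Psmd4, the subunit that captures ubiquitin chains (ENSMUSG00000005625, chr3:95032694-95042614), had 145, 144, 133 and 138 CPM in the Sham-Saline mice, 195, 160.0, 169.6 and 174 in the Sham-DMI mice, 164, 164, 154 and 165 in the SNI-Saline mice and 179, 177, 184 and 179.5 in the SNI-DMI mice. None of these overlapped between Sham-DMI and Sham-Saline, and the log2 fold changes were 0.31 (SE 0.0518, edgeR adjusted p = 0.00212) for Psmc4, 0.31 (SE 0.0534, adjusted p = 0.00229) for Psmc5 and 0.32 (SE 0.0529, adjusted p = 0.00212) for Psmd4. Psmd8, a lid subunit, had 115, 113, 103 and 106 CPM in the Sham-Saline mice, 133, 120.4, 126 and 134 in the Sham-DMI mice, 132, 125, 124 and 128 in the SNI-Saline mice and 131, 128, 134 and 133 in the SNI-DMI mice. It too was higher in all 4 Sham-DMI libraries, with a log2 fold change of 0.23 (SE 0.0474, edgeR adjusted p = 0.00455). Many genes given library by library were picked by smallest p or most calls. Groups that do not overlap therefore add no separate support, here or in the other comparisons. The share of all genes without overlap is not given here.

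Several subunits of the same particles did not pass the test. The ATPase Psmc6 had a log2 fold change of 0.00 (edgeR adjusted p = 0.972), the alpha subunits Psma3 and Psma6 had 0.02 and 0.05, the lid subunits Psmd11 and Psmd12 had 0.02 and 0.10, and Psmd14, the deubiquitinase of the lid, had 0.04. The scaffold subunit Psmd1 stood at -0.05. Psmc6, Psma3 and Psmd11 belong to the members with the lowest GC content, as do Psma2, Psmb7 and Psmc2, which rose.

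Psmg3, a chaperone that helps to assemble the alpha ring (ENSMUSG00000029551, chr5:139823592-139826885), had levels of 12.4, 11.98, 10.5 and 11.7 CPM in the Sham-Saline mice, 17.7, 13.5, 14.98 and 15.4 in the Sham-DMI mice, 14.1, 13.4, 12.99 and 13.4 in the SNI-Saline mice and 16.7, 18.5, 18.01 and 17.2 in the SNI-DMI mice. Its log2 fold change of 0.40 (SE 0.0796, edgeR adjusted p = 0.00397) in Sham-DMI against Sham-Saline equalled that of Psmb5 to 2 decimals. Its exons overlap those of the coding gene Gm26938 on the same strand, so its reads are uncertain. Of the other chaperones, Psmd9 rose by 0.28 (adjusted p = 0.00889), Psmg2 by 0.23 (adjusted p = 0.0141) and Psmd10 by 0.21 (adjusted p = 0.0504) on the log2 scale.

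Psme4, the large nuclear activator that caps the core for degradation of acetylated histones (ENSMUSG00000040850, chr11:30771726-30880361), was the one member that fell. Its levels were 168, 157, 162 and 155 CPM in the Sham-Saline mice, 117, 134, 138 and 123 in the Sham-DMI mice, 142, 129.9, 147 and 155 in the SNI-Saline mice and 119, 109.5, 105 and 125 in the SNI-DMI mice. All 4 Sham-DMI libraries lay below all Sham-Saline libraries, and the log2 fold change was -0.33 (SE 0.0656, edgeR adjusted p = 0.00432). After removal of the GC and length trends it was -0.14 (adjusted p = 0.0929), and with a replicate block added to that the call was lost (adjusted p = 0.124).

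The interferon-responsive activator pair Psme1 and Psme2, which forms a ring on the core, is given gene by gene. Psme1 had 28.9, 29.8, 25.5 and 30.4 CPM in the Sham-Saline mice, 39.04, 31.2, 25.5 and 31.97 in the Sham-DMI mice, 37.2, 38.7, 29.4 and 31.5 in the SNI-Saline mice and 46.9, 42.2, 37.5 and 42.7 in the SNI-DMI mice. Psme2 had 25.2, 28.3, 24.6 and 26.7 CPM in the Sham-Saline mice, 36.3, 28.7, 29.1 and 32.99 in the Sham-DMI mice, 36.4, 32.6, 29.1 and 30.8 in the SNI-Saline mice and 41.3, 35.9, 35.05 and 39.7 in the SNI-DMI mice. In Sham-DMI against Sham-Saline, Psme2 rose by 0.28 (SE 0.0841, edgeR adjusted p = 0.0302) on the log2 scale, and Psme1 had 0.16 (SE 0.11, adjusted p = 0.353) with overlapping groups. Psme2b, whose longest transcript is identical to that of Psme2 in 99.4% of 794 aligned bases so that reads of either can be lost or exchanged, had 13.4, 14.2, 12.4 and 14.7 CPM in the Sham-Saline mice, 18.5, 13.6, 14.6 and 16.3 in the Sham-DMI mice, 18.3, 17.9, 16.2 and 15.2 in the SNI-Saline mice and 20.5, 16.998, 19.1 and 20.4 in the SNI-DMI mice. The nuclear activator Psme3 had 102, 106, 100.2 and 102 CPM in the Sham-Saline mice, 112, 100.3, 93.03 and 87.998 in the Sham-DMI mice, 101, 109, 96.8 and 105 in the SNI-Saline mice and 99.2, 106, 98.5 and 106 in the SNI-DMI mice. The core inhibitor Psmf1 had 88.9, 79.9, 81.6 and 80.4 CPM in the Sham-Saline mice, 85.5, 83.3, 93.98 and 90.4 in the Sham-DMI mice, 80.9, 85.1, 80.2 and 85.2 in the SNI-Saline mice and 84.97, 87.3, 89.4 and 90.01 in the SNI-DMI mice. Neither Psme3 (log2 fold change -0.06, edgeR adjusted p = 0.536) nor Psmf1 (0.09, adjusted p = 0.203) passed the test. Psmf1 did pass as higher after removal of the GC and length trends (0.18), where 15.6% of all genes did. It also passed for DMI averaged over both surgeries (0.09), where 14.8% did.

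**Figure D2:**
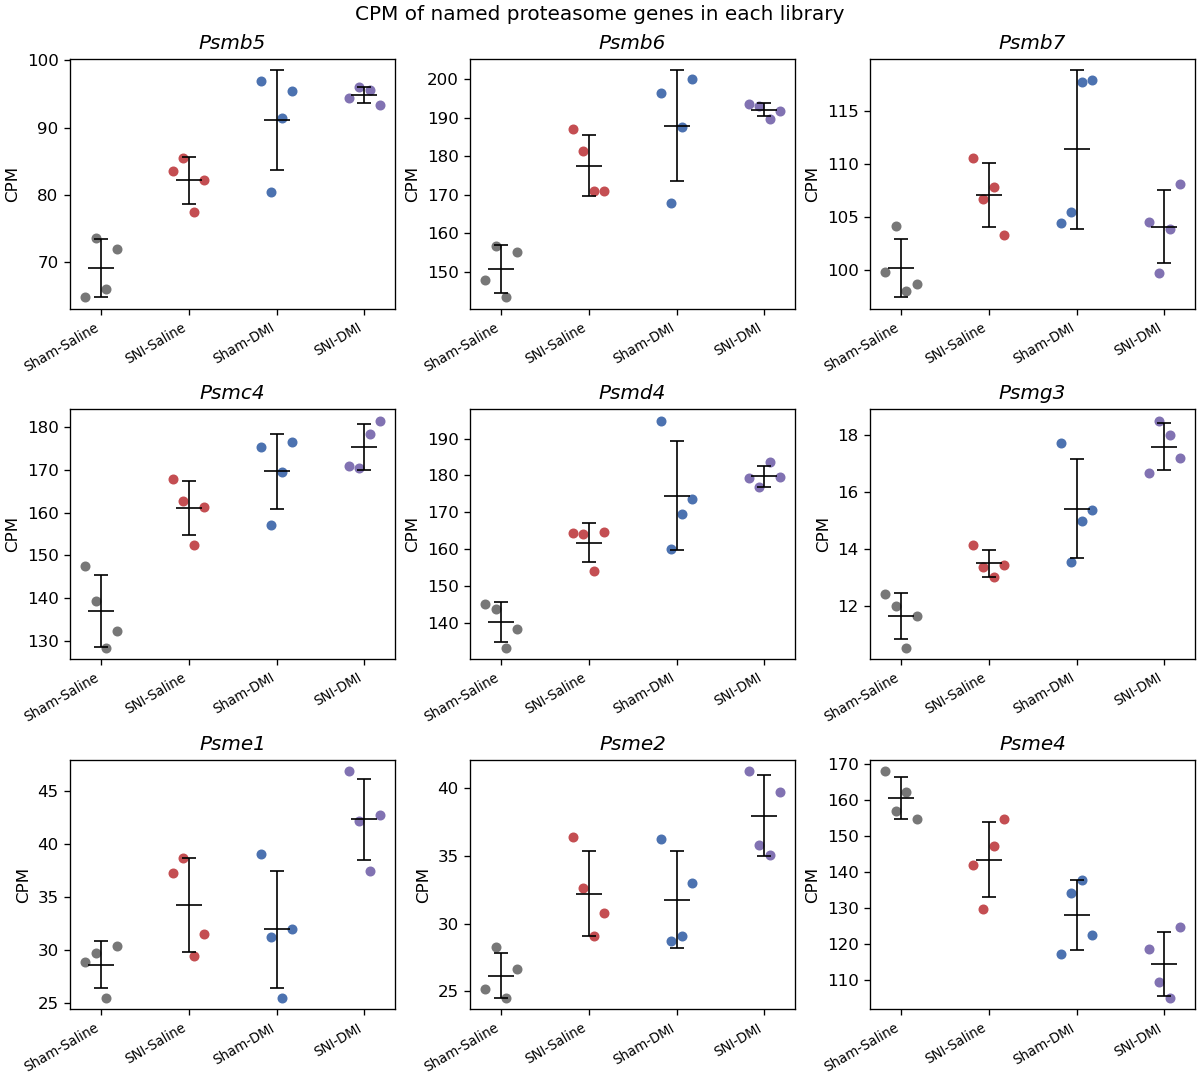
CPM (vertical axis, not starting at 0) of 9 members in each library of the 4 groups; points are libraries and bars the mean ± SD of 4 mice. Psmb5, Psmb6, Psmc4, Psmd4 and Psmg3 were lowest in Sham-Saline, Psme4 was highest there, and Psmb7 ranged only from 98.1 to 118 CPM over all groups.

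GC content moved with these values. Over 45 members (without Psma8) the log2 fold change in Sham-DMI against Sham-Saline had a Spearman correlation of 0.529 with GC content and -0.385 with exon length; the members share libraries, so this is a description. Removing from each library its smooth trend of log2 counts on GC content and length gave correlations of -0.153 and 0.0987. The count did not shrink: 35 members rose and 1 fell, against 15.6% and 3.66% of all genes, and the median was 0.24, against 0.044 for all genes. All 28 members that passed before passed again. Psmc6 then had a log2 fold change of 0.34, Psmd11 0.29 and Psma3 0.23.

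**Figure D3:**
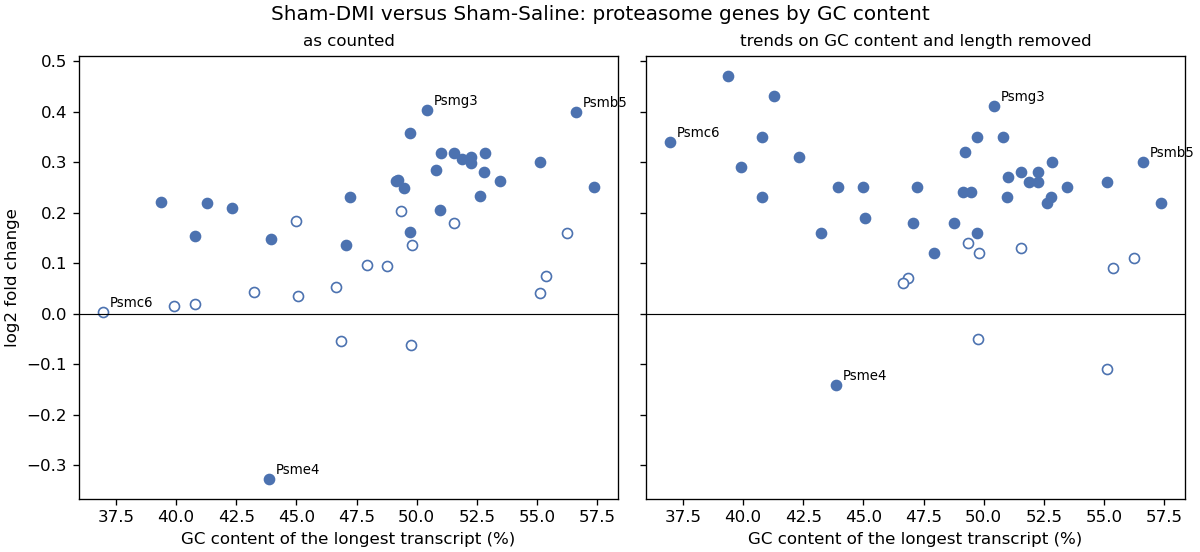
Log2 fold change in Sham-DMI against Sham-Saline (vertical axis) of 45 members by the GC content of their longest transcript in percent (horizontal axis), as counted and after removal of the GC and length trends; filled points have an adjusted p under 0.1. Low-GC members such as Psmc6 sat near 0 as counted (0.00) and at 0.34 after removal, while Psme4 went from -0.33 to -0.14.

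The second comparison asked what DMI did in injured mice. In SNI-DMI against SNI-Saline, 2 of 46 members (4.35%) rose and 1 (2.17%) fell at an adjusted p under 0.1, against 1.32% and 1.61% of all genes. The median log2 fold change of the members was 0.05, against -0.005. At an unadjusted p under 0.05, 13 members were higher and 3 lower, against 8.89% and 9.64% of all genes, and the study's cut-offs kept 2 members, against 5.73%. The members that passed were Psmg3 (log2 fold change 0.38, SE 0.0791, edgeR adjusted p = 0.0622), Psme4 (-0.32, SE 0.0656, adjusted p = 0.0622) and Psmb5 (0.21, SE 0.0579, adjusted p = 0.0949). The libraries listed above did not overlap for any of these genes: SNI-DMI held 16.7 to 18.5 CPM of Psmg3 against 13.0 to 14.1 with SNI-Saline, 105 to 125 CPM of Psme4 against 129.9 to 155, and 93.3 to 96.1 CPM of Psmb5 against 77.3 to 85.5. Psmg3 and Psme4 lost the call whenever replicate 1, 3 or 4 of SNI-Saline, or replicate 1, 2 or 3 of SNI-DMI, was left out, and 0 members were then called. Psmb5 lost it in 10 of the 16 fits that left out a library and had 0.11 (adjusted p = 0.298) with the trends removed, where Psme4 had -0.21 (adjusted p = 0.128). With the trends removed Psmg3 alone passed, against 0.215% of all genes that rose.

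Most core and cap subunits stayed short of the threshold in injured mice. The beta subunits had a median log2 fold change of 0.11, the ATPases 0.10 and the alpha subunits -0.00. Psmd4 had 0.15 (SE 0.0528, edgeR adjusted p = 0.142), Psmb6 0.11 (SE 0.053, adjusted p = 0.264), Psmb2 0.08 (SE 0.0567, adjusted p = 0.477) and Psmb7 -0.04 (SE 0.0483, adjusted p = 0.681), the last becoming 0.11 with the trends removed. Psme1 had 0.31 (SE 0.109, adjusted p = 0.151) with overlapping groups.

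The difference between both DMI effects, that in injured mice minus that in sham mice, was tested next. At an adjusted p under 0.1 it passed for 0 of 46 members and for 0% of all genes with edgeR. With DESeq2 it passed for 0 members too. At an unadjusted p under 0.05, 0 members were higher and 21 (45.7%) were lower, against 3.94% and 3.98% of all genes, and the study's cut-offs kept 0, against 3.45%. The median difference was -0.15 on the log2 scale, and 39 of 46 values were below 0. Examples are Psmd6 (-0.21, SE 0.0666), Psma5 (-0.25, SE 0.0787), Psmb2 (-0.24, SE 0.0802), Psmd8 (-0.19, SE 0.0669) and Psmb5 (-0.19), with an edgeR adjusted p of 0.619 for Psmd6, Psma5, Psmb2 and Psmd8. No single member thus passed the test for a DMI effect that differed between surgeries. Averaged over both surgeries, DMI gave 28 members higher (60.9%) and 1 lower, against 14.8% and 15.8% of all genes, with a median of 0.14. The study's cut-offs kept 2 members there, against 8.74%. The smallest adjusted p in that average belonged to Psmb5 (log2 fold change 0.30, edgeR adjusted p = 0.000391), Psmg3 (0.39, adjusted p = 0.000451) and Psme4 (-0.32, adjusted p = 0.000451).

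**Figure D4:**
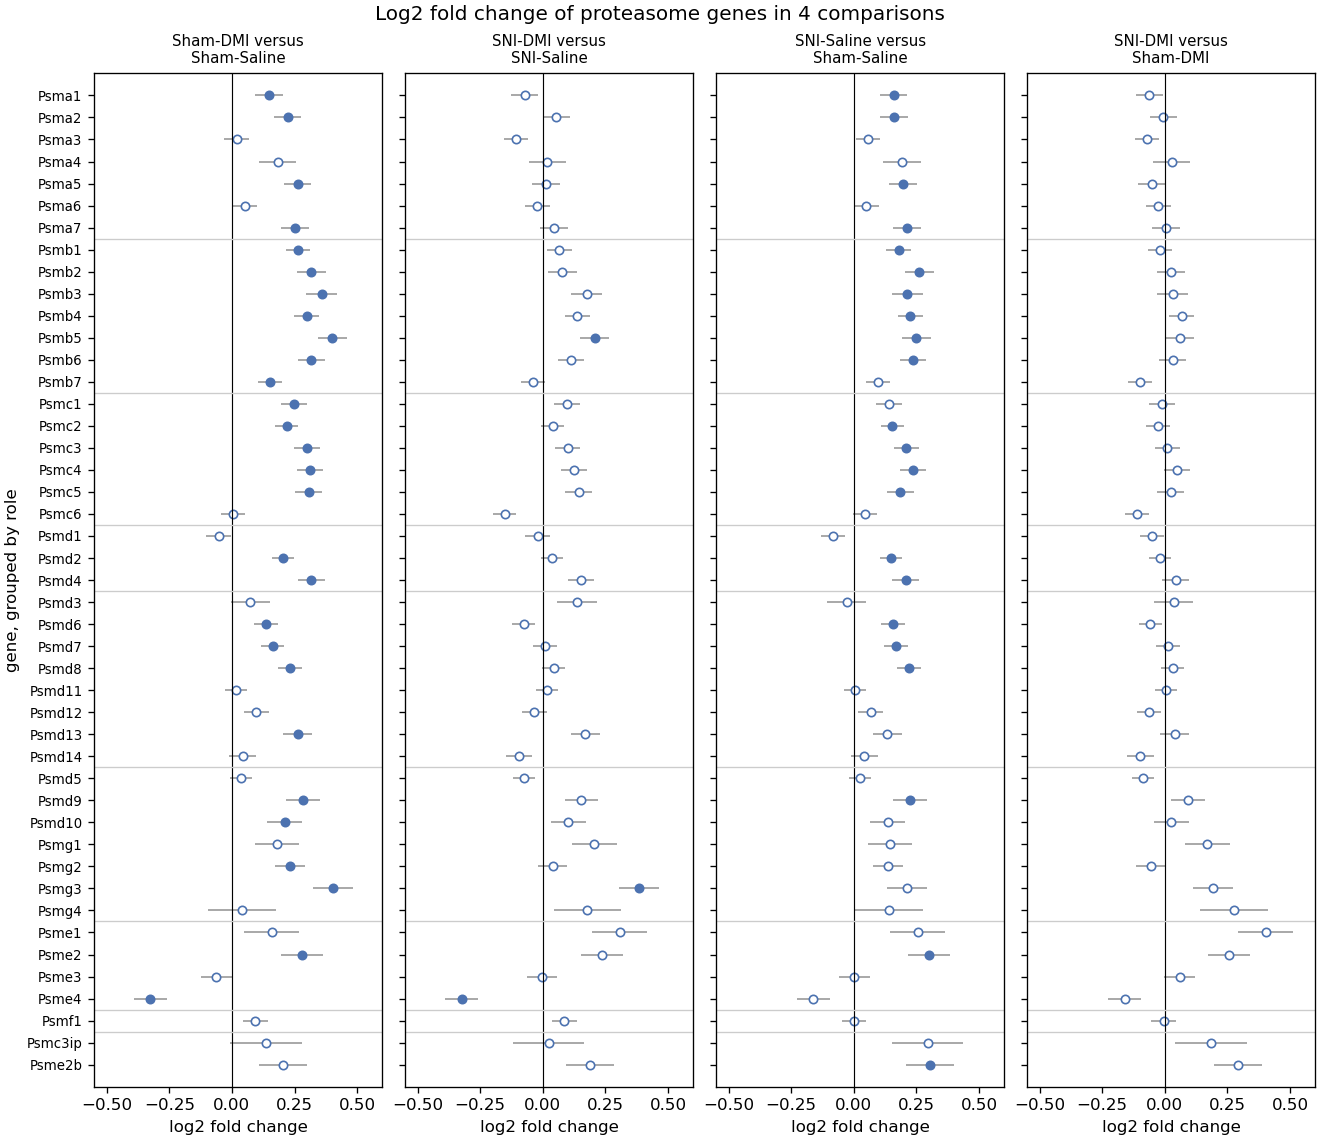
Log2 fold change (horizontal axis, bars give the SE) of 45 members (Psma8, with few reads, is left out), grouped by role from the alpha ring at the top to Psmc3ip and Psme2b at the bottom, in 4 comparisons; filled points have an adjusted p under 0.1. Of these, 28 are filled for Sham-DMI against Sham-Saline, 3 for SNI-DMI against SNI-Saline, 22 for SNI-Saline against Sham-Saline and 0 for SNI-DMI against Sham-DMI.

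The third comparison asked what injury did without drug. In SNI-Saline against Sham-Saline, 22 of 46 members (47.8%) rose and 0 fell at an adjusted p under 0.1, against 5.85% and 6.18% of all genes. The median log2 fold change was 0.16, against -0.001 for all genes, and 43 of 46 values were above 0. By role, 6 of 7 beta subunits rose (median 0.23), with 4 of 8 alpha subunits (0.18), 4 of 6 ATPases (0.17), 2 of 3 base subunits (0.15), 3 of 8 lid subunits (0.10) and 1 of 7 assembly chaperones (0.14). None reached the study's cut-offs, against 7.15% of all genes. This comparison and that of Sham-DMI with Sham-Saline use the same 4 Sham-Saline libraries, which had the lowest proteasome levels, so the counts are not independent.

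Psmd8 gave the smallest p, with a log2 fold change of 0.22 (SE 0.0473, edgeR adjusted p = 0.0176), followed by Psmb2 with 0.26 (SE 0.0568, adjusted p = 0.018) and Psmc4 with 0.24 (SE 0.0518, adjusted p = 0.0189). All 4 SNI-Saline libraries of these genes lay above the highest Sham-Saline library, which adds no separate support for genes picked by p. The catalytic Psmb5 rose by 0.25 (SE 0.0581, adjusted p = 0.0239) and Psmb6 by 0.24 (SE 0.053, adjusted p = 0.0211), while Psmb7 had 0.10 (SE 0.0483, adjusted p = 0.244) with overlapping groups. The activator Psme2 rose by 0.30 (SE 0.084, edgeR adjusted p = 0.0454) and its near copy Psme2b by 0.30 (SE 0.0964, adjusted p = 0.0701). Psmg3 (0.21, adjusted p = 0.117) and Psme4 (-0.16, adjusted p = 0.144) did not pass, though their groups did not overlap. For Psme4 the groups nearly touched, with the highest SNI-Saline library at 154.73 CPM and the lowest Sham-Saline library at 154.81 CPM.

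The injury count was less firm than that of DMI in sham mice. It fell to 7 members without Sham-Saline replicate 3, to 8 without SNI-Saline replicate 1, to 13 without SNI-Saline replicate 2 and to 14 without replicate 4 of Sham-Saline. The share of all genes called in these fits is not given here. A loss particular to the members thus cannot be told apart from a general loss of calls. After removal of the GC and length trends 9 members rose, 7 of them among the 22, against 2.45% of all genes, with a median of 0.14. The trend summed over GC content and length added a median of 0.05 to the members' log2 fold changes here, against -0.01 in Sham-DMI against Sham-Saline.

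The fourth comparison asked what injury did under DMI. In SNI-DMI against Sham-DMI, 0 of 46 members passed an adjusted p of 0.1 with edgeR, against 0.374% of all genes higher and 0.0281% lower. With DESeq2 1 member passed, and the share of all genes in that fit is not given here. At an unadjusted p under 0.05, 4 members were higher and 2 lower, against 6.67% and 5.43% of all genes. The median log2 fold change was 0.02. The smallest p belonged to the activator genes Psme1 (log2 fold change 0.40, SE 0.11, edgeR adjusted p = 0.159) and Psme2 (0.26, SE 0.0837, adjusted p = 0.237) and to the near copy Psme2b (0.29, SE 0.0961, adjusted p = 0.243). Psme1 was the 1 member within the study's cut-offs, against 5.41% of all genes. Averaged over both treatments, injury gave 17 members higher and 1 lower, against 7.71% and 8.43%, with a median of 0.08, and the study's cut-offs kept 1 member, against 5.87%. In that average Psme1 (0.33), Psme2b (0.30) and Psme2 (0.28) had the highest log2 fold changes among those that passed, and Psme4 (-0.16) was the one that fell. After removal of the GC and length trends 5 members were higher and 0 lower, against 812 and 1387 of all 21371 genes. Of the 18 members called before, 4 were still called, and the fall of Psme4 was lost.

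Genes that work with the proteasome but have other symbols gave a mixed picture. Pomp, the maturation factor of the core, stood at 109.5 ± 6.03 CPM for Sham-Saline, 143 ± 14.9 for Sham-DMI, 139 ± 6.16 for SNI-Saline and 153 ± 5.48 for SNI-DMI (SD, n = 4). It rose by 0.39 (SE 0.0638, edgeR adjusted p = 0.00196) with DMI in sham mice and by 0.34 (SE 0.0638, adjusted p = 0.00983) with injury, and had 0.14 (adjusted p = 0.25) with DMI in injured mice. The small lid subunit Sem1 rose by 0.40 (adjusted p = 0.00569) and 0.31 (adjusted p = 0.0427) in the first pair of comparisons and had 0.17 (adjusted p = 0.282) in the last. The ubiquitin receptor Adrm1 had 0.09 (adjusted p = 0.422), 0.07 (adjusted p = 0.63) and 0.14 (adjusted p = 0.303), in the same order.

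Of 11 associated enzymes and shuttle factors, 1 rose and 5 fell in Sham-DMI against Sham-Saline, where 11.6% and 11.9% of all genes did so. After removal of the GC and length trends 3 were higher and 1 lower, against 15.6% and 3.66% of all genes. The median log2 fold change of the list went from -0.10 to 0.07. Usp14, the deubiquitinase bound to the 19S base, went from 182.5 ± 9.96 CPM (Sham-Saline) to 154 ± 13.1 CPM (Sham-DMI) and from 163 ± 4.46 CPM (SNI-Saline) to 139 ± 11.3 CPM (SNI-DMI) (SD, n = 4), with log2 fold changes of -0.24 (edgeR adjusted p = 0.0162) and -0.23 (adjusted p = 0.0959). With the trends removed these were 0.07 (adjusted p = 0.42) and -0.03 (adjusted p = 0.819), and the call in injured mice was also lost with the replicate block and in 12 of 16 fits that left out a library. The shuttle factors Ubqln1 (-0.16, adjusted p = 0.0311), Ubqln2 (-0.27, adjusted p = 0.0529) and Rad23b (-0.14, adjusted p = 0.0628) and the adaptor Ecpas (-0.12, adjusted p = 0.0958) passed the test as lower as counted. With the trends removed, Ubqln2 alone of these kept its call (-0.25, adjusted p = 0.0904), while Ubqln1 had -0.10 (adjusted p = 0.262), Rad23b -0.03 (adjusted p = 0.741) and Ecpas 0.08 (adjusted p = 0.237). Leaving out 1 library ended the call of Ecpas in 15 of 16 fits, of Rad23b in 10, of Ubqln2 in 4 and of Ubqln1 in 3. The segregase Vcp was higher (0.12, adjusted p = 0.072, lost in 5 such fits) and had 0.17 (adjusted p = 0.0195) after removal. Uchl5, the deubiquitinase recruited by Adrm1, had 0.00 (adjusted p = 0.997) in Sham-DMI against Sham-Saline and 0.24 (adjusted p = 0.00631) after removal of the trends.

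The ubiquitin genes Rps27a (log2 fold change 0.33, edgeR adjusted p = 0.0104) and Ubb (0.30, adjusted p = 0.015) rose in Sham-DMI against Sham-Saline. These genes share ubiquitin-coding sequence, so reads could be split among them. Among 10 transcription factors and their processing enzymes, 0 rose and 1 was lower in that comparison, Nfya, a subunit of NF-Y (-0.23, adjusted p = 0.0358), against 11.6% and 11.9% of all genes. After removal of the GC and length trends 2 of the 10 were higher and 0 lower, against 15.6% and 3.66% of all genes. The 2 were the Nfe2l1-processing enzyme Ngly1 (0.23, edgeR adjusted p = 0.00605) and the NF-Y subunit Nfyb (0.20, adjusted p = 0.0385). Nfya then had -0.16 (adjusted p = 0.146). Nfe2l1 stood at 739.5 ± 27.6 CPM in Sham-Saline and 761 ± 48.4 in Sham-DMI (SD, n = 4), a log2 fold change of 0.04 (adjusted p = 0.617). Its mRNA level does not report on its activity, which is set by cleavage of the protein.

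The immunoproteasome genes, which replace the catalytic subunits after interferon exposure, passed the test with injury in saline-treated mice and in neither comparison of DMI within a surgery. Psmb8, Psmb9 and Psmb10 rose in SNI-Saline against Sham-Saline by 0.72 (SE 0.228, edgeR adjusted p = 0.0698), 0.81 (SE 0.285, adjusted p = 0.0939) and 0.36 (SE 0.107, adjusted p = 0.0567) on the log2 scale. These calls were lost after removal of the GC and length trends (adjusted p = 0.126, 0.158 and 0.151) and in 6, 7 and 4 of the 16 fits that left out a library. In SNI-DMI against Sham-DMI they had 0.84, 1.05 and 0.30, with adjusted p of 0.16, 0.164 and 0.289. Averaged over both treatments, injury gave 3 of 3 higher (median 0.78), against 7.71% of all genes. With the trends removed 3 of 3 were still higher in that average (median 0.71), against 812 of 21371 genes. In Sham-DMI against Sham-Saline they had -0.16, -0.30 and 0.24, with adjusted p of 0.683, 0.532 and 0.129. Averaged over both surgeries, DMI gave a call for Psmb10 only (0.21, edgeR adjusted p = 0.0477), lost with the trends removed (0.14, adjusted p = 0.156). The levels of Psmb8, Psmb9 and Psmb10 in Sham-Saline were 12.6 ± 1.69, 6.25 ± 0.489 and 33.97 ± 2.87 CPM (SD, n = 4), below those of Psmb5, Psmb6 and Psmb7.

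Other large complexes moved alongside. In Sham-DMI against Sham-Saline, 73 of 81 cytosolic ribosomal protein genes rose (median log2 fold change 0.31), with 34 of 35 nuclear complex I genes (0.31) and 4 of 8 subunits of the chaperonin (0.13), beside the 27 of 46 proteasome members (0.20) and 11.6% of all genes. With the GC and length trends removed, 74 of 81, 35 of 35 and 8 of 8 were higher, against 15.6% of all genes. In SNI-Saline against Sham-Saline the counts were 64 of 81 (0.24), 26 of 35 (0.21) and 2 of 8 (0.08), beside 22 of 46 (0.16) and 5.85% of all genes. After removal of the trends the counts there were 16, 5 and 1, against 2.45% of all genes. In SNI-DMI against SNI-Saline they were 3 of 81 (0.15), 5 of 35 (0.12) and 0 of 8 (0.04), beside 2 of 46 (0.05) and 1.32% of all genes. After removal of the trends the counts there were 0, 0 and 0, against 0.215% of all genes. Whether the complexes differed from each other was not tested.

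Some lists of cell type markers moved with the groups too, and others did not. In the lists of Schwann cells, endothelium, fibroblasts and red cells no marker passed an adjusted p of 0.1 in any comparison. The 4 markers of injured neurons summed to 27.8 to 39.7 CPM for Sham-Saline, 42.7 to 66.97 for Sham-DMI, 139.6 to 164 for SNI-Saline and 135 to 244 for SNI-DMI. In Sham-DMI against Sham-Saline 3 of these 4 passed as higher and 0 as lower (median log2 fold change 1.46), against 11.6% and 11.9% of all genes. With the GC and length trends removed 3 were higher (median 1.39), against 15.6%. The 7 DRG neuron markers, with none at 0, summed to 6472 to 6829 CPM for Sham-Saline, 6856 to 8168 for Sham-DMI, 6680 to 7281 for SNI-Saline and 7108 to 7543 for SNI-DMI. In Sham-DMI against Sham-Saline 3 of the 7 passed as higher and 0 as lower, against 11.6% and 11.9% of all genes. With the GC and length trends removed 1 was higher, against 15.6%. The means of Mrgprd (207 to 177 CPM) and Scn10a (1256 to 1209 CPM) went down. The 4 satellite glia markers reached 1932 to 2133 CPM (Sham-Saline), 2191 to 2697 CPM (Sham-DMI), 2209 to 2639 CPM (SNI-Saline) and 2471 to 2820 CPM (SNI-DMI). Most of this sum was Apoe (mean 1422 CPM in Sham-Saline and 1704 CPM in Sham-DMI). In Sham-DMI against Sham-Saline 2 of these 4 markers passed as higher, against 11.6% of all genes, while Kcnj10 went from a mean of 81.3 to 71.1 CPM. The 5 macrophage markers reached 89.96 to 103.5 CPM (Sham-Saline), 65.98 to 94.8 CPM (Sham-DMI), 111 to 212 CPM (SNI-Saline) and 87.6 to 175.0 CPM (SNI-DMI). All 4 neutrophil markers were lower in Sham-DMI against Sham-Saline (median log2 fold change -1.61), where 11.9% of all genes were. Their summed levels were 8.13 to 31.8 CPM (Sham-Saline), 3.37 to 12.5 CPM (Sham-DMI), 12.55 to 41.25 CPM (SNI-Saline) and 3.57 to 11.05 CPM (SNI-DMI). The 3 muscle markers summed to values from 0.935 CPM in 1 Sham-Saline library to 174.5 CPM in 1 SNI-DMI library. The part of these cell types in the proteasome result was not tested.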

How the data were processed

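RNA was measured in 16 libraries of mouse DRG, 4 per group. Per the labels and methods, the authors sequenced stranded mRNA libraries, aligned to mm10 and deposited read counts per gene (HISAT2 and HTSeq are named in the submitters' processing notes, without versions). Groups came from the sample titles. The members and lists were chosen with earlier results of these data known. GENCODE M21 (GRCm38) named 52489 of 52636 gene identifiers. Counts were fitted in edgeR 4.0.16 (R 4.3.3), all libraries together, with filterByExpr, TMM normalization and the quasi-likelihood test. Benjamini-Hochberg adjustment ran over all 21371 genes tested, and calls used an adjusted p under 0.1. CPM uses TMM library sizes. Values in every library are given in replicate order for the catalytic subunits, activators and inhibitor, the 3 members of smallest p in each of 4 comparisons, and up to 3 more called most often. Trends on GC content and length were smoothed with mgcv 1.9.3. Alternatives included DESeq2 1.42.0, other filters and normalization, a replicate block and leaving out each library. The model was also run on counts simulated from its own fit, with changes put into SNI-DMI only, for SNI-DMI against SNI-Saline alone. That run held no trend on GC content or length and did not cover the other comparisons. Whether both sides' ganglia were taken is not given in the sources used here; p-values measure the spread between mice. Some genes of the ubiquitin list are not reported here.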

Additional observations from a re-analysis of the deposited data

Results flagged for a closer look

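Among 72 groups of 4 libraries looked at for the members given in every library and for Psma8, 3 held a value far from the other libraries, where chance gives about 1 in 20. Psmd4 in SNI-Saline replicate 3 was at 154.0 CPM, against 164.2 to 164.6 in the other SNI-Saline libraries. Psmb2 in Sham-Saline replicate 3 was at 88.65 CPM, against 99.74 to 101.5. Psmc5 in SNI-DMI replicate 4 was at 265.5 CPM, against 279.8 to 281.8. Each was the low library of its group.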

How the results depend on the processing

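The count of members called in Sham-DMI against Sham-Saline (28) stayed between 25 and 33 without any 1 library and between 27 and 36 under every other setting except the study's cut-offs (4). That for DMI averaged over both surgeries (29) ran from 27 to 32 without 1 library and was 2 with the cut-offs. In SNI-Saline against Sham-Saline (22) the count ran from 7 to 27 without 1 library and was 9 with trends removed, 2 with the replicate block and trends removed, and 0 with the cut-offs. In SNI-DMI against SNI-Saline (3) it ran from 0 to 10 without 1 library (10 without replicate 1 of Sham-DMI, 9 without its replicate 2, 5 without SNI-Saline replicate 2), and was 10 with DESeq2, 10 with only the 8 libraries compared, 1 with trends removed and 0 with the replicate block and trends removed. In SNI-DMI against Sham-DMI (0) it ran from 0 to 4 (4 without Sham-DMI replicate 1, 1 without SNI-DMI replicate 3) and was 1 with no filter, 1 with DESeq2, 1 with the replicate block, 1 with the block and trends removed and 1 with the cut-offs. For injury averaged over both treatments (18) it ran from 13 to 24 and was 5 with trends removed, 4 with the block and trends removed and 1 with the cut-offs. The difference between both DMI effects gave 0 throughout. The causes were not tested. Shares of all genes are given here only for the main fit, the study's cut-offs and the fit with trends removed. Under the other settings a count that moved cannot be set against all genes. Among the members given in every library, the log2 fold changes that crossed 0 were uncalled: Psmb7 in SNI-DMI against SNI-Saline (0.11 with trends removed, 0.11 with the block added), Psme3 in that comparison (0.00 with no filter, -0.04 to 0.04 without 1 library), in SNI-Saline against Sham-Saline (-0.05 with trends removed, -0.05 with the block added, -0.02 to 0.04 without 1 library) and in Sham-DMI against Sham-Saline (-0.11 to 0.01 without 1 library), and Psmf1 in SNI-Saline against Sham-Saline (-0.01 to 0.05 without 1 library). Whether the shared replicate numbers pair mice is not known. Over 24 same-number pairs the correlation of deviations was -0.081 to 0.184, with 5 over 0.1. Its mean was 0.025, against -0.008 for pairs of other numbers, and 6 of 16 libraries lay closest to their own number. Weak correlations cannot show that mice were unpaired. With the replicate block alone the counts were 28 for Sham-DMI against Sham-Saline, 3 for SNI-DMI against SNI-Saline, 21 for SNI-Saline against Sham-Saline, 1 for SNI-DMI against Sham-DMI, 28 for DMI averaged, 15 for injury averaged and 0 for the difference. With promoter windows of 250 bases before the start only, TGACNNNGC was in 12.8% of members and 11.5% of promoters, and CCAAT in 35.9% and 37.5%. Depth limits Psma8 and Psmb11, which had few reads.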
